A study of Mus musculus with 14 samples.

Results

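Prostaglandin genes of the mouse kidney were followed through renal ischemia/reperfusion injury (IRI), in which the blood supply of the kidney is interrupted and then restored. The group was defined by name as 9 of the 24411 gene symbols in the count tables: the cyclooxygenases Ptgs1 and Ptgs2, the terminal synthases Ptges, Ptgds and Ptgis, the receptors Ptger1, Ptger3 and Ptger4, and the degrading enzyme Hpgd. All 9 passed the filter on low counts, which left 14300 genes to test. Bulk RNA sequencing, which reads the RNA of all kidney cells together, covered kidneys of male C57/B6 mice aged 8 weeks at day 0 (n = 4), day 1 (n = 5) and day 3 (n = 5) after IRI. The labels name no transgene or drug in any group, and whether day 0 mice had a sham operation is not given in the sources used here. Nor is it given whether replicates are separate mice, so p-values measure only the spread between these libraries. In whole-kidney RNA, fewer cells of a type and less RNA per cell cannot be told apart.

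Prostaglandins are short-lived lipid messengers. Phospholipases free arachidonic acid from membranes, a cyclooxygenase turns it into prostaglandin H2, and a terminal synthase turns that into E2, D2 or prostacyclin. Prostaglandin E2 is known in the kidney for its effects on blood flow, on renin release and on salt and water handling, which it exerts through the receptors EP1 to EP4. Ptgs1 encodes COX-1, which many cells express at rest, and Ptgs2 encodes COX-2, which is inducible in many cell types and is made by cells of the macula densa and the medullary interstitium.

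Library numbers come in 2 formats. All 4 libraries of day 0, replicates 3, 4 and 5 of day 1 and replicates 4 and 5 of day 3 have 1-digit numbers, and replicates 1 and 2 of day 1 and replicates 1, 2 and 3 of day 3 have 3-digit numbers. What the format marks is not given in the sources used here, and it was taken as a split that may be technical. Since no day 0 library has a 3-digit number, day and format cannot be told apart in the 3-digit libraries, and each day 1 and day 3 result was also computed within each format. Day 0 replicate 4 stood apart from the other day 0 libraries, with 51.4 CPM (counts scaled to library size) summed over 7 urothelium markers against 3.59 to 10.7, and with the highest Ptges, Ptgs1, Ptger1, Ptgis and Ptgs2 of that day. The same sum was 102 CPM in day 1 replicate 2 against 5.31 to 15.1 CPM in the rest of day 1, and 40.7 CPM in day 3 replicate 4 against 2.08 to 11.9 CPM. Day 1 replicate 2 had the highest Ptger3 and Ptger1 of its day, and calls that changed without it are given with each gene or with the results by format.

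Of the 9 genes, 6 changed between day 0 and day 1. Ptgs2, Ptges and Ptger4 were higher, and Ptger3, Ptger1 and Hpgd were lower. The median log2 fold change was -0.12 over the 9 genes and 0.0073 over all genes tested. Of all genes tested, 42.1% were called in this comparison, 23.3% higher and 18.7% lower, at an adjusted p under 0.05 by edgeR's quasi-likelihood test with Benjamini-Hochberg adjustment over all genes, which gives every adjusted p below. Day 1 and day 0 values did not overlap for any of the 6, where 42.0% of all genes had groups that did not overlap. At day 3, 5 of the 9 differed from day 0, with Ptger4 higher and Ptger3, Ptger1, Hpgd and Ptgds lower. The background there was 33.3%, made up of 19.5% higher and 13.8% lower, with 33.4% of all genes free of overlap between the groups, and the median log2 fold change was -0.30 over the 9 genes and 0.054 over all genes. Between day 3 and day 1 only Ptgs2 and Ptges were called, both lower at day 3, against a background of 15.9% (7.39% lower).

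**Figure D1:**
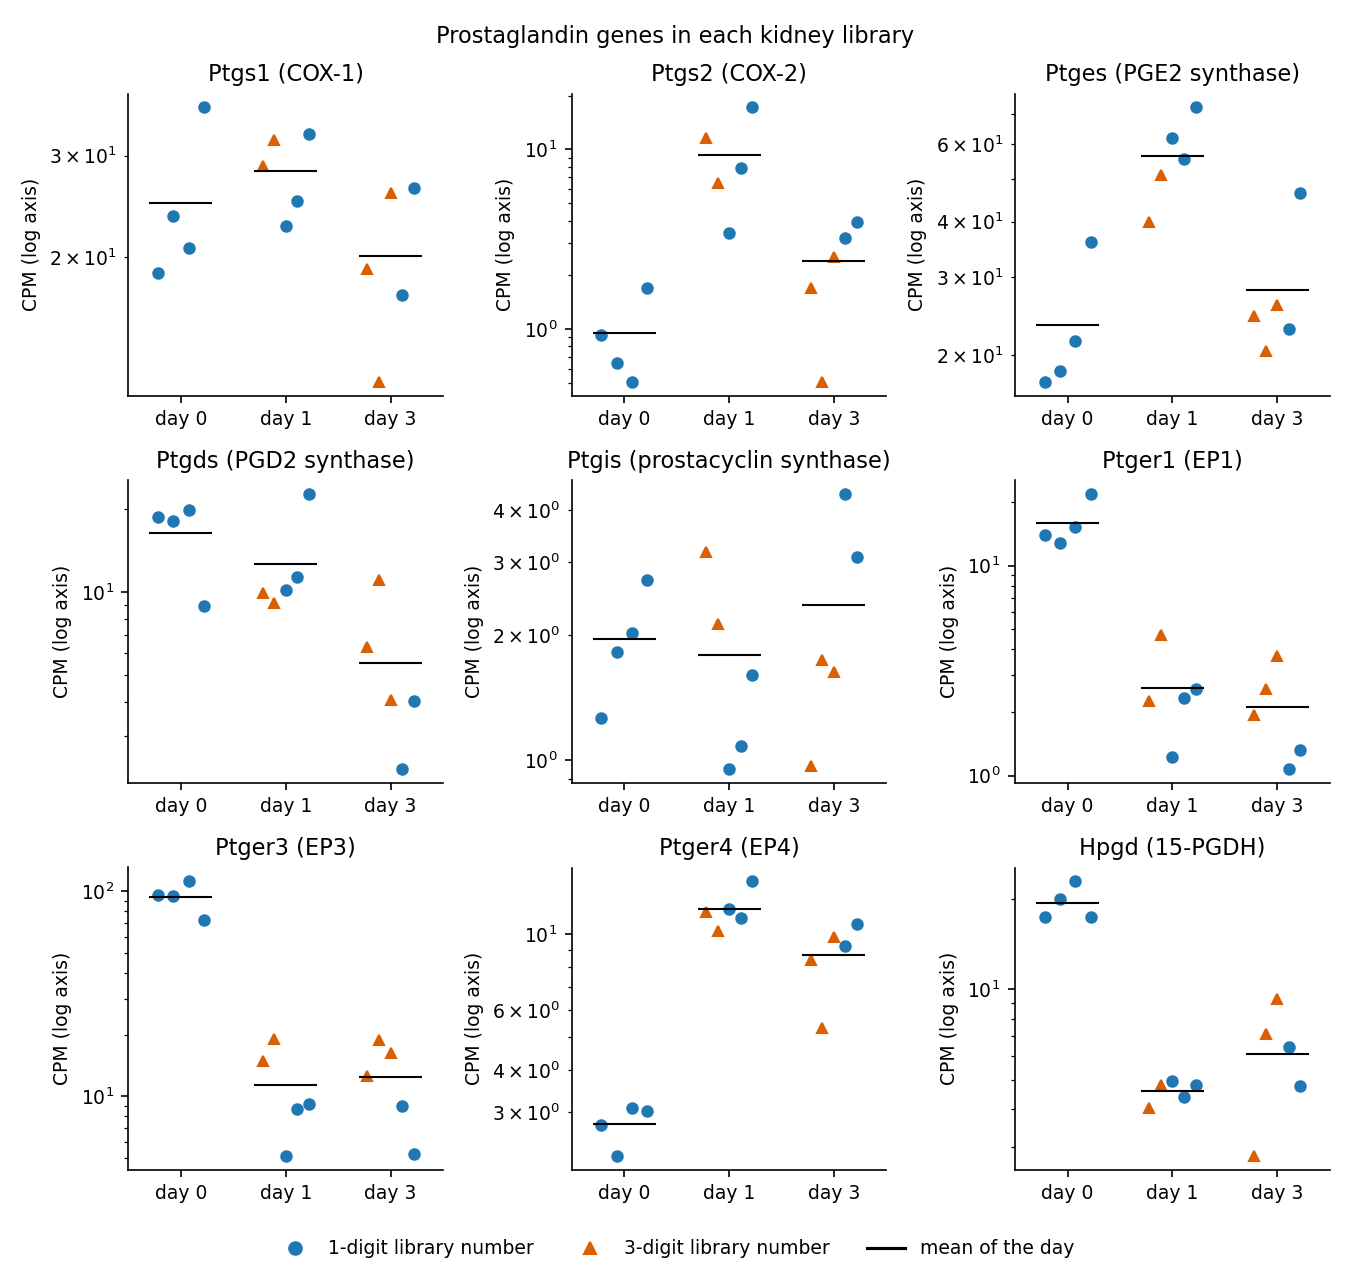
CPM (log axis) of the 9 prostaglandin genes in each of the 14 kidney libraries, by day after IRI. Circles are libraries with 1-digit numbers, triangles those with 3-digit numbers, and lines the mean of the day. Ptger3 and Ptger1 lie below every day 0 value at both later days and Ptger4 above every one.

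Promoters of the 5 genes called at day 1 for which a sequence was at hand are shown because these genes moved in both directions in the same kidneys. The sequences come from RefSeq on GRCm38.p6 and run 5′ to 3′ on the strand of the gene, from 250 bases before to 50 bases after the annotated start. The RefSeq table matched 7 of the 9 genes and had no entry for Ptgis and Ptger1. Both strands were searched for 6 motifs, which stand in capitals: the TATA box TATAAA, the cAMP response element half-site ACGTCA, the E-box CACGTG, the C/EBP palindrome TTGCGCAA, the AP-1 site TGANTCA and the GC box GGGCGG.
Ptgs2, chr1:150099781-150100080, plus strand: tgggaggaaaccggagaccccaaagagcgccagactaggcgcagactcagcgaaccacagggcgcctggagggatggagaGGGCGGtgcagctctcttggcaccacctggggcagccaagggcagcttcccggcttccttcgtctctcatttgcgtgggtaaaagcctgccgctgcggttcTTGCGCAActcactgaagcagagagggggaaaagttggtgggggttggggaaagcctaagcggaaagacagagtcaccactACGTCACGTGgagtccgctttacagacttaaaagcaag
Ptges, chr2:30903248-30903547, minus strand: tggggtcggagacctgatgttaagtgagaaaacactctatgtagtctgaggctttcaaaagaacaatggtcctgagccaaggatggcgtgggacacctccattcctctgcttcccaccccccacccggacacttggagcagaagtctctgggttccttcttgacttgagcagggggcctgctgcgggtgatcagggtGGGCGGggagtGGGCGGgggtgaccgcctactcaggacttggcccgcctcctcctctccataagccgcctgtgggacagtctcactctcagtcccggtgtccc
Ptger4, chr15:5244138-5244437, minus strand: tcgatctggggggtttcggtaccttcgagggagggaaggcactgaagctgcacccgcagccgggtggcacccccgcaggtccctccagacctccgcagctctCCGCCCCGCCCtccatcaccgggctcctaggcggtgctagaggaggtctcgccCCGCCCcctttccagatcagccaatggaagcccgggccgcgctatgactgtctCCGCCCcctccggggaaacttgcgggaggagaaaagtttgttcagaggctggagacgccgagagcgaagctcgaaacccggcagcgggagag
Ptger3, chr3:157566626-157566925, plus strand: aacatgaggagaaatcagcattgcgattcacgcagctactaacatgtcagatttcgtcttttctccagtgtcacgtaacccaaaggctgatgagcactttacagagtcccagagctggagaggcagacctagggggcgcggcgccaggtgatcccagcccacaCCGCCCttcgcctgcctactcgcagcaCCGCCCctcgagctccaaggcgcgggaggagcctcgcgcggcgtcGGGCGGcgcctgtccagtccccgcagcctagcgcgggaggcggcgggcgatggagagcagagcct
Hpgd, chr8:56294302-56294601, plus strand: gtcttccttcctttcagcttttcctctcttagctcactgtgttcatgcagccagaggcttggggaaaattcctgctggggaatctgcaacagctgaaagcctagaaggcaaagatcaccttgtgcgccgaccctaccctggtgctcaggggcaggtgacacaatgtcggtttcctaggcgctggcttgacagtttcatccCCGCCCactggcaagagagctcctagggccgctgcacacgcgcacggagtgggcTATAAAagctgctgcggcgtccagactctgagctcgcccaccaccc

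Ptgs2 was the only one of the 7 promoters with a cAMP response element half-site, an E-box or a C/EBP palindrome in this window. The half-site at bases 263 to 268 and the E-box at bases 267 to 272 overlap as ACGTCACGTG just after the start. Of 32851 mouse promoters of the same length, 32 (0.0974%) hold that run of letters. The run is not one of the 6 motifs but the string present in Ptgs2 itself, so its low share is a description and no test. The C/EBP palindrome at bases 182 to 189 occurs in 0.183% of these promoters, the half-site alone in 7.51% and the E-box alone in 7.15%. The GC box, which 35.7% of promoters hold, was present once in Ptgs2, 2 times in Ptges, 3 times in Ptger3, 4 times in Ptger4 and once in Hpgd, so that it was shared by genes that were higher and genes that were lower at day 1. In Ptger4 the GC boxes at bases 103 to 108 and 108 to 113 share a base. Hpgd had the only TATA box of the 7, a motif of 13.6% of promoters, 4 bases after its RefSeq start. The GENCODE start of Hpgd, chr8:56294585, lies downstream of that RefSeq start and of the box. Of the 2 promoters not printed, Ptgds held an AP-1 site at bases 216 to 222 (7.81% of promoters) and Ptgs1 none of the 6 motifs. A match of letters is a description and not evidence of binding.

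Levels of different genes were set side by side as RPKM, the CPM divided by the exonic length in kilobases, with lengths from GENCODE M21 on GRCm38. The annotation that the authors counted on is not given in the sources used here, so these lengths are approximate. At day 0 the EP3 receptor gene Ptger3 was the most abundant at 16.5 ± 2.88 RPKM (SD, n = 4), followed by Hpgd at 11.5 ± 1.55, Ptgds at 9.95 ± 3.07, Ptgs1 at 6.40 ± 2.04 and Ptges at 5.93 ± 2.20. Ptger1 followed at 2.93, Ptgis at 0.762, Ptger4 at 0.418 and Ptgs2 at 0.206 RPKM. The first 5 overlapped with their neighbours in this order and so did Ptger4 with Ptgs2, whereas the ranges of Ptges and Ptger1, Ptger1 and Ptgis, and Ptgis and Ptger4 did not overlap. At day 1 Ptges was first at 14.3 RPKM (n = 5), ahead of Ptgds at 7.67 and Ptgs1 at 7.27. Hpgd, Ptgs2, Ptger3 and Ptger4 lay close together between 1.78 and 2.74 RPKM, and Ptger1 was last at 0.479. Only the steps from Ptgs1 to Hpgd and from Ptger4 to Ptgis separated ranges without overlap. At day 3 Ptges was first again at 7.13 RPKM and Ptger1 last at 0.390, with every neighbour in the order overlapping the next.

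**Figure D2:**
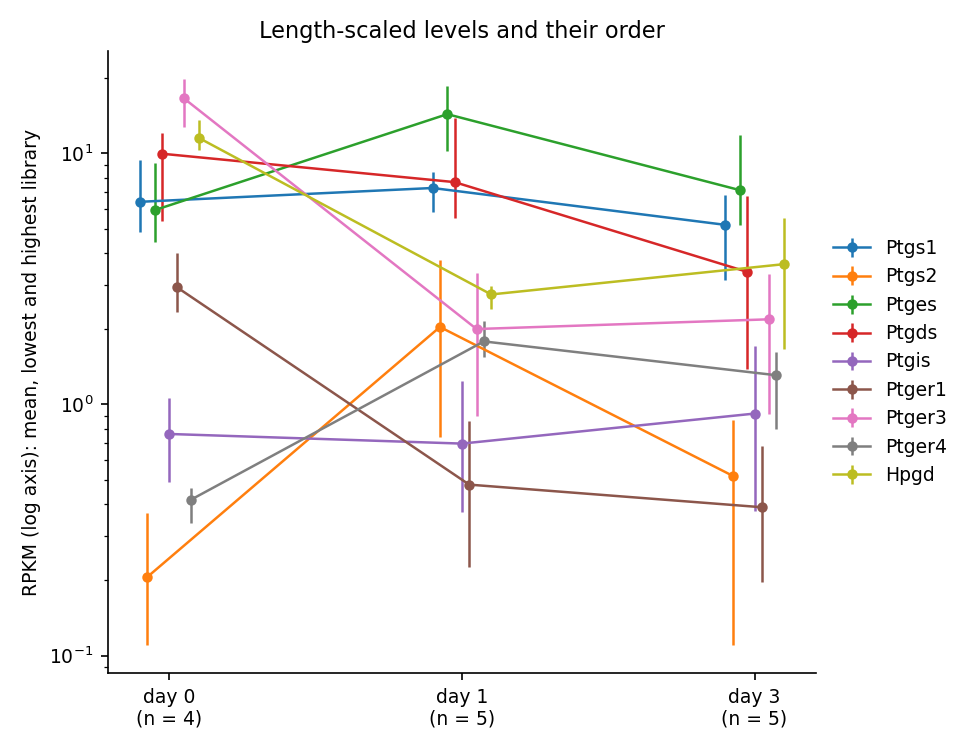
Mean RPKM (log axis) of the 9 genes at day 0 (n = 4), day 1 (n = 5) and day 3 (n = 5), with bars from the lowest to the highest library. Ptger3 goes from first at day 0 (16.5 RPKM) to the middle of the order at day 1 (2.00 RPKM), and Ptges leads at both later days.

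The cyclooxygenase genes differed in their course. Ptgs2 (COX-2; chr1:150100031-150108227, plus strand, 11 merged exons) was at 0.920, 0.647, 0.505 and 1.69 CPM in the 4 libraries of day 0, which rests on 8 to 28 reads each. At day 1 it was at 11.5, 6.54, 3.41, 7.88 and 17.2 CPM in replicates 1 to 5 (50 to 214 reads), and at day 3 at 1.68, 0.507, 2.52, 3.23 and 3.96 CPM (9 to 54 reads). Every day 1 library was above every day 0 library, and day 3 replicate 2 was as low as the lowest of day 0. Ptgs2 rose by 3.29 ± 0.60 on the log2 scale at day 1 (SE, adjusted p = 0.000954), a 9.80-fold difference, and within the formats it was 3.32 ± 0.59 for the 1-digit and 3.25 ± 0.62 for the 3-digit libraries (adjusted p = 0.000373 and 0.00131). At day 3 the difference from day 0 was 1.32 ± 0.58 and was not called (adjusted p = 0.0905). It was called without day 3 replicate 2 (1.58, adjusted p = 0.0237), for 1-digit numbers alone (1.92 ± 0.65, adjusted p = 0.0240) and over all libraries once number format was a term of the fit (1.60 ± 0.61, adjusted p = 0.0435), and was 0.74 ± 0.61 in the 3-digit libraries (adjusted p = 0.381).

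From day 1 to day 3 Ptgs2 fell by 1.97 ± 0.51 on the log2 scale (adjusted p = 0.0210). With day 0 and 1 format fitted alone, the difference was -1.41 ± 0.61 for the 1-digit (adjusted p = 0.0948, not called) and -2.51 ± 0.60 for the 3-digit libraries (adjusted p = 0.0223). The groups overlapped, and the call was lost with the 2 days fitted alone (adjusted p = 0.0510), without day 1 replicate 5 (adjusted p = 0.0593) and without day 3 replicate 1 (adjusted p = 0.0529). Ptgs1 (COX-1; chr2:36230426-36252272, plus strand) was at 18.8, 23.6, 20.7 and 36.4 CPM at day 0, at 28.8, 32.0, 22.7, 25.1 and 32.6 CPM at day 1 and at 19.1, 12.2, 25.9, 17.2 and 26.4 CPM at day 3, and all 3 days overlapped. Its log2 fold change was 0.18 ± 0.24 at day 1 (adjusted p = 0.556) and -0.30 ± 0.24 at day 3 (adjusted p = 0.334). In length-scaled terms the ratio of Ptgs2 to Ptgs1 had a median of 0.0314 at day 0 (0.0207 to 0.0415), 0.267 at day 1 (0.127 to 0.447) and 0.0827 at day 3 (0.0353 to 0.159). Ptgs2 stayed below Ptgs1 on this scale in every library. The ratio was chosen after the values were seen and has no test.

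Several lists of markers and response genes also held genes that were higher at day 1, whereas most macrophage markers were not called. All 5 neutrophil markers in the tables were higher, and their summed level was 1.33 to 2.07 CPM at day 0, 47.3 to 201 CPM at day 1 and 19.3 to 408 CPM at day 3, with S100a8, S100a9, Cxcr2, Csf3r and Retnlg all above 0. All 10 immediate early genes (Fos, Egr1, Atf3 and others, which cells switch on within minutes of a stimulus) were higher at day 1, from 158 to 206 CPM summed at day 0 to 330.5 to 3332 CPM, and 6 of the 10 were higher at day 3. Within day 1 their sum was 330.5 and 483 CPM for 3-digit numbers against 1620 to 3332 CPM for the others, whereas Ptgs2 overlapped between the formats. Of 8 macrophage markers Cd68 was higher and Csf1r lower at day 1 and 6 were not called, with a median log2 fold change of 0.39 and sums of 114 to 164 CPM at day 0 and 79.1 to 121 CPM at day 1. Of 8 fibroblast and pericyte markers Col3a1 and Pdgfrb were higher at day 1, and the sum went from 128 to 136 CPM to 146 to 459 CPM. Of 7 smooth muscle markers 3 were higher, from 142 to 171 CPM summed to 309 to 579 CPM. Of 6 genes of tubular injury 5 were higher (Havcr1, Krt20, Sox9, Lcn2 and Spp1), from 1039.7 to 1352 CPM summed to 7239 to 35179 CPM. The part of these cells and genes in the Ptgs2 result was not tested.

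Ptges, which encodes the inducible synthase that makes prostaglandin E2 downstream of COX-2, was the only terminal synthase of the group that was higher at day 1. The gene lies at chr2:30889471-30929863 on the minus strand in GENCODE, whose 5′ end lies upstream of the RefSeq start used for the promoter above. Its day 0 libraries were at 17.4, 18.4, 21.5 and 36.0 CPM and its day 1 libraries at 40.0, 51.1, 61.8, 55.5 and 72.6 CPM, with the lowest of day 1 just above replicate 4 of day 0. At day 3 it was at 24.5, 20.4, 25.9, 22.9 and 46.4 CPM, so that 4 of the 5 libraries were back among the day 0 values and replicate 5 was above them all. Ptges rose by 1.27 ± 0.28 on the log2 scale at day 1 (adjusted p = 0.00276), or 1.44 ± 0.26 within the 1-digit and 0.97 ± 0.29 within the 3-digit libraries (adjusted p = 0.000472 and 0.0179). At day 3 it was 0.26 ± 0.27 relative to day 0 (adjusted p = 0.468). From day 1 to day 3 Ptges fell by 1.01 ± 0.25 (adjusted p = 0.0185), with overlapping groups and with adjusted p = 0.0502 without day 1 replicate 5. Neither format alone gave the call, with -0.89 ± 0.35 and -0.95 ± 0.29 for the 1-digit and 3-digit libraries (adjusted p = 0.0685 and 0.0503).

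Collecting duct cells are among the places where prostaglandin E2 is made. Of 10 of their markers, Aqp4, Hsd11b2 and Avpr2 were lower at day 1 and 7 were not called, against 18.7% of all genes lower, and 5 were lower at day 3, against 13.8%. In the 1-digit libraries 6 of the 10 were lower at day 1 and 8 at day 3, and in the 3-digit libraries 1 was lower (Hsd11b2) and 1 higher (Fxyd4) at day 1 and 4 were lower at day 3, where the shares of all genes called in either direction were 58.5% and 53.7% for the 1-digit and 41.6% and 32.4% for the 3-digit libraries. The summed level was 966 to 1234 CPM at day 0, 417 to 926 CPM at day 1 and 272 to 853 CPM at day 3. Ptges per 1000 CPM of these markers was 17.6 to 29.2 at day 0, 47.0 to 133 at day 1 and 30.4 to 171 at day 3, with no overlap with day 0 at either day. The same ratio for Ptgs1 was 18.5 to 29.5, 33.8 to 60.2 and 29.0 to 97.0, which overlapped with day 0 at day 3. These ratios were chosen after the values were seen and were not tested.

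Ptgds and Ptgis, the synthases of prostaglandin D2 and prostacyclin, were not called at day 1. Ptgds (chr2:25466709-25470046, minus strand) was at 18.7, 18.2, 19.9 and 8.89 CPM at day 0, at 9.91, 9.13, 10.2, 11.3 and 22.7 CPM at day 1 and at 6.31, 11.1, 4.06, 2.29 and 4.04 CPM at day 3. One library of each of the first 2 days lay far from the rest, replicate 4 at day 0 with a low value and replicate 5 at day 1 with a high one. Relative to day 0 the log2 difference was -0.38 ± 0.40 at day 1 (adjusted p = 0.463). By day 3 Ptgds had fallen by 1.56 ± 0.41 relative to day 0 (adjusted p = 0.0105), although the groups overlapped because day 0 replicate 4 was below day 3 replicate 2. Both formats gave this call, with -2.38 ± 0.50 for the 1-digit and -1.20 ± 0.39 for the 3-digit libraries (adjusted p = 0.00155 and 0.0300). The difference of -1.18 ± 0.39 between day 3 and day 1 missed the threshold (adjusted p = 0.0533). It was called by DESeq2 (adjusted p = 0.0145) and with RLE size factors (adjusted p = 0.0482), without day 1 replicate 2 (adjusted p = 0.0389), without day 3 replicate 2 (adjusted p = 0.0132) and among 1-digit numbers only (-2.23 ± 0.47, adjusted p = 0.00492), but was -0.42 ± 0.42 in the 3-digit libraries (adjusted p = 0.528).

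Ptgis (chr2:167191805-167240604, minus strand) was low throughout, at 1.26, 1.82, 2.02 and 2.72 CPM at day 0, 3.18, 2.13, 0.954, 1.09 and 1.61 CPM at day 1 and 0.967, 1.75, 1.63, 4.37 and 3.08 CPM at day 3, on 14 to 65 reads per library. Its log2 fold change was -0.12 ± 0.46 at day 1 (adjusted p = 0.849) and 0.26 ± 0.45 at day 3 (adjusted p = 0.681). It was the one gene of the 9 called by format in opposite directions at the 2 days. At day 1 the 3-digit libraries were higher by 1.13 ± 0.40 (adjusted p = 0.0420), at day 3 they were lower by 1.36 on the log2 scale (-1.36 ± 0.39, adjusted p = 0.0304), and the difference between these contrasts was -2.49 ± 0.56 (adjusted p = 0.00911). The day 1 call was lost with no filter on low counts (adjusted p = 0.0566), with RLE size factors (adjusted p = 0.0501) and without any of day 1 replicates 1 to 4, day 0 replicates 2 or 3 or day 3 replicate 3 (adjusted p from 0.0514 to 0.249), and the day 3 call without any of day 3 replicates 2 to 5 (adjusted p from 0.0517 to 0.127). From day 1 to day 3 Ptgis was higher by 1.61 ± 0.38 in the 1-digit libraries (adjusted p = 0.00926) and differed by -0.87 ± 0.40 in the 3-digit libraries (adjusted p = 0.169). Smooth muscle and endothelial cells are known sources of prostacyclin. Summed smooth muscle markers of day 1 were at 495 and 579 CPM under 3-digit numbers against 309 to 398 CPM in the others. At day 3 the sums were 290 to 347 CPM against 776 and 959 CPM, the same order as Ptgis in both. Gene by gene, 6 of the 7 were higher in the 3-digit libraries at day 1, where 35.0% of all genes were called. At day 3 Des, Acta2 and Tagln were lower in them and 4 were not called (median -0.44), where 18.5% of all genes were called. Summed endothelial markers did not follow Ptgis at day 1, at 282 and 350.0 CPM under 3-digit numbers against 333 to 446 CPM in the others, and were at 152 to 259 CPM against 391 and 642 CPM at day 3. The part of these cells was not tested.

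The receptor genes changed in opposite directions and held their changes to day 3. Ptger3 encodes EP3, a receptor that lowers cyclic AMP and is found in the thick ascending limb and the collecting duct. The gene spans chr3:157566892-157645888 on the plus strand. It was at 96.5, 94.9, 112 and 72.5 CPM at day 0, at 14.9, 19.0, 5.11, 8.63 and 9.17 CPM at day 1 and at 12.6, 18.9, 16.3, 9.01 and 5.21 CPM at day 3. The highest library of either later day was far below the lowest of day 0. The log2 fold change was -3.04 ± 0.38 at day 1 (adjusted p = 6.73e-05), 8.24-fold lower, and -2.92 ± 0.38 at day 3 (adjusted p = 0.000139), 7.55-fold lower. Day 3 and day 1 differed by 0.13 ± 0.35 (adjusted p = 0.831).

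Ptger3 also differed by number format at both days, where 35.0% of all genes were called at day 1 and 18.5% at day 3, and 60.7% and 41.4% had groups that did not overlap. The 3-digit libraries were higher by 1.15 ± 0.28 at day 1 (adjusted p = 0.00739) and by 1.16 ± 0.30 at day 3 (adjusted p = 0.0210), with no overlap at either day. The day 1 call was lost without day 1 replicate 2 (adjusted p = 0.0827) and the day 3 call without day 3 replicate 2, 3 or 5. Against day 0 the change was -3.62 ± 0.26 and -2.47 ± 0.29 at day 1 for the 1-digit and the 3-digit libraries, and -3.72 ± 0.32 and -2.56 ± 0.25 at day 3, with adjusted p from 7.47e-07 to 4.71e-05.

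Markers of the thick limb and the macula densa were also lower. Of 7 markers 6 were lower at day 1, Nos1 among them, against 18.7% of all genes. At day 3, 5 were lower, against 13.8%, and Nos1 was not called. The median log2 fold changes were -1.57 and -1.32. The summed level of the 7 was 8071 to 11345 CPM at day 0, 3187 to 6037 CPM at day 1 and 2163 to 3526 CPM at day 3. Slc12a1, the salt transporter that defines the thick limb, changed by -3.59 ± 0.65 at day 1 (log2, adjusted p = 0.000845). Umod, which makes up most of the summed level, changed by -0.57 ± 0.21 (adjusted p = 0.0407). The Umod call was lost with number format as a term (adjusted p = 0.0658) and without any of 7 libraries (day 0 replicates 1, 2 and 3, day 1 replicates 2, 3 and 4 and day 3 replicate 1, adjusted p from 0.0506 to 0.109). Ptger3 per 1000 CPM of these markers was 8.60 to 9.89 at day 0, 1.32 to 5.95 at day 1 and 1.77 to 6.35 at day 3, below every day 0 value in all 10 later libraries. The part of lost thick limb RNA in the Ptger3 result was not tested beyond this ratio.

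Ptger1 encodes EP1, a receptor that raises cell calcium and acts on sodium transport in the collecting duct. It was at 14.03, 12.8, 15.3 and 21.9 CPM at day 0, at 2.26, 4.68, 1.23, 2.34 and 2.57 CPM at day 1 and at 1.93, 2.59, 3.71, 1.08 and 1.32 CPM at day 3, with no overlap between day 0 and either later day. The log2 fold change was -2.60 ± 0.39 at day 1 (adjusted p = 0.00024) and -2.90 ± 0.39 at day 3 (adjusted p = 0.000183). It was -2.97 ± 0.36 and -2.20 ± 0.39 for the 1-digit and 3-digit libraries at day 1, and -3.73 ± 0.45 and -2.54 ± 0.34 at day 3, all 4 called. Per 1000 CPM of collecting duct markers Ptger1 was 13.2 to 17.7 at day 0, 2.55 to 5.62 at day 1 and 2.78 to 6.17 at day 3, again without overlap.

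Strand matters for Ptger1. The gene lies at chr8:83666678-83672753 on the plus strand and had 16 to 362 reads per library. Of the strand-assigned reads of the locus, 49.3% to 95.4% lay on the other strand, against at most 2.56% for the other 8 genes. With strand ignored, the change was -1.12 at day 1 (adjusted p = 0.000221) and -0.78 at day 3 (adjusted p = 0.00328), so that both calls stood with smaller changes. Ptger4 shares 1015 exonic bases with a pseudogene on the opposite strand, and with strand ignored its log2 fold changes were 2.09 and 1.64.

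Ptger4 encodes EP4, a receptor that raises cyclic AMP, and was the only receptor of the 3 that was higher after IRI. It lies at chr15:5206661-5244187 on the minus strand. Its libraries were at 2.76, 2.24, 3.09 and 3.02 CPM at day 0, at 11.6, 10.2, 11.9, 11.2 and 14.3 CPM at day 1 and at 8.39, 5.29, 9.80, 9.21 and 10.7 CPM at day 3, on 38 to 225 reads. All 10 later libraries were above all 4 of day 0, and the day 1 values lay close together. On the log2 scale Ptger4 rose by 2.09 ± 0.22 at day 1 (adjusted p = 2.47e-05), 4.25-fold, and 1.64 ± 0.22 at day 3 (adjusted p = 0.000171), 3.12-fold. The formats gave 2.16 ± 0.22 and 1.97 ± 0.24 at day 1 and 1.84 ± 0.24 and 1.50 ± 0.22 at day 3, 1-digit first, all called. The difference of -0.45 ± 0.19 between day 3 and day 1 was not called (adjusted p = 0.130). EP4 is carried by many immune cells, and neutrophil markers rose as given above. Of the 8 macrophage markers, Cd68 was higher at both days, Mrc1 was higher at day 3 and Csf1r was lower at both, with median log2 fold changes of 0.39 and 0.69 and sums of at most 165 CPM. In the 3-digit libraries of day 3, 5 of the 8 were higher and 1 lower (median 1.24), and in the 1-digit libraries of that day, where Ptger4 was also higher, 1 was higher and 3 were lower (median -0.54). The part of these cells in the Ptger4 result was not tested.

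Ptger4 and Ptger3 came closer together after IRI, with Ptger3 still ahead in mean RPKM at both later days. The length-scaled ratio of Ptger4 to Ptger3 had a median of 0.0240 at day 0 (0.0201 to 0.0357), 1.11 at day 1 (0.461 to 1.99) and 0.569 at day 3 (0.240 to 1.76). Among the day 1 values, those of the 1-digit libraries were all above 1 and those of the 3-digit libraries both below it, and at day 3 only replicate 5 was above 1. EP3 and EP4 are coupled to opposite effects on cyclic AMP. The ratios were chosen after the values were seen and have no test.

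Hpgd encodes 15-hydroxyprostaglandin dehydrogenase, the enzyme that begins the breakdown of prostaglandin E2. The gene lies at chr8:56294585-56321043 on the plus strand. It was at 17.4, 19.9, 22.9 and 17.3 CPM at day 0, at 4.04, 4.81, 4.97, 4.40 and 4.82 CPM at day 1 and at 2.80, 7.09, 9.30, 6.45 and 4.77 CPM at day 3. The 5 values of day 1 lay closest together of the 9 genes relative to their mean, and those of day 3 were more spread but stayed below day 0. On the log2 scale Hpgd changed by -2.07 ± 0.27 at day 1 (adjusted p = 8.24e-05), 4.20-fold lower, and -1.67 ± 0.26 at day 3 (adjusted p = 0.00049), 3.18-fold lower. The formats gave -2.03 ± 0.32 and -2.13 ± 0.37 at day 1 and -1.79 ± 0.36 and -1.60 ± 0.30 at day 3, all called. The difference of 0.40 ± 0.25 between day 3 and day 1 was not called (adjusted p = 0.290).

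Where in the kidney these Hpgd reads arose is not known from bulk RNA. Summed proximal tubule markers ranged from 21818 to 23142 CPM at day 0, 6345 to 22063 CPM at day 1 and 4558 to 20169 CPM at day 3, and Hpgd per 1000 CPM of them was 0.753 to 1.04, 0.225 to 0.759 and 0.172 to 1.05, which overlapped with day 0 at both later days. Day 1 replicate 2 and day 3 replicate 5, which had the lowest marker sums of their days, were at 0.759 and 1.05, whereas day 1 replicate 3, which had the highest of day 1, was at 0.225. The part of lost proximal tubule RNA in the Hpgd result was not tested beyond this ratio. The ratio of Ptges to Hpgd, maker and breaker of prostaglandin E2, had a median RPKM ratio of 0.415 at day 0 (0.394 to 0.889), 5.33 at day 1 (4.24 to 6.44) and 1.52 at day 3 (1.19 to 4.16), without overlap between day 0 and either later day. This too was chosen after the values were seen.

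**Figure D3:**
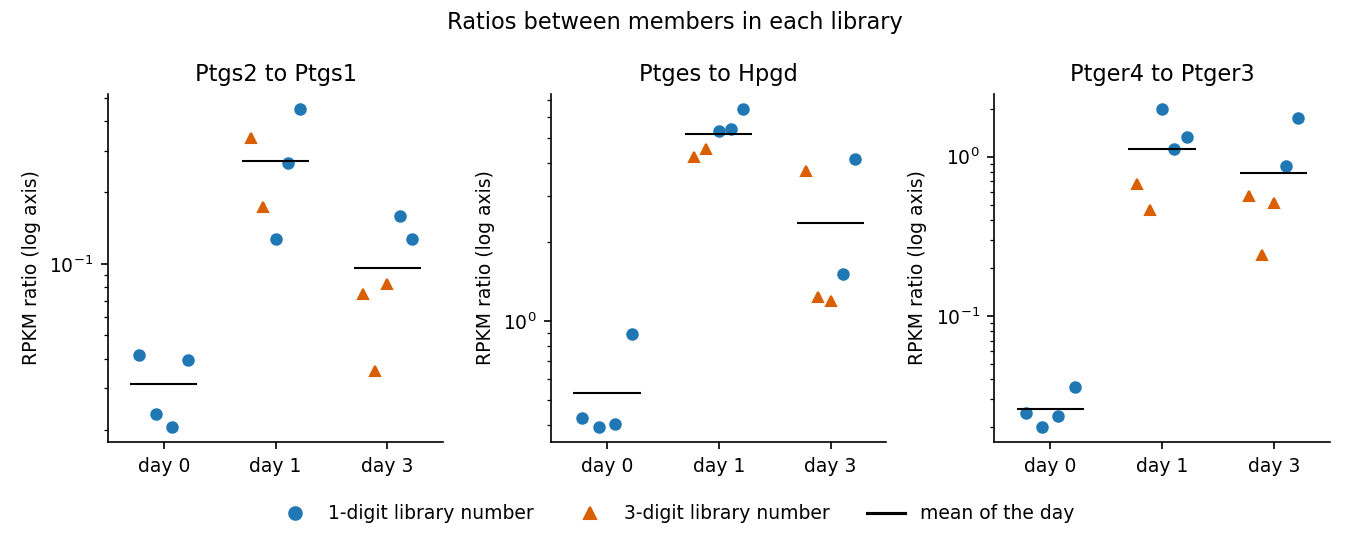
RPKM ratios (log axis) of Ptgs2 to Ptgs1, Ptges to Hpgd and Ptger4 to Ptger3 in each library by day, with circles for 1-digit and triangles for 3-digit library numbers and lines for the mean of the day. Ptges exceeds Hpgd in every library of days 1 and 3 and in none of day 0.

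**Figure D4:**
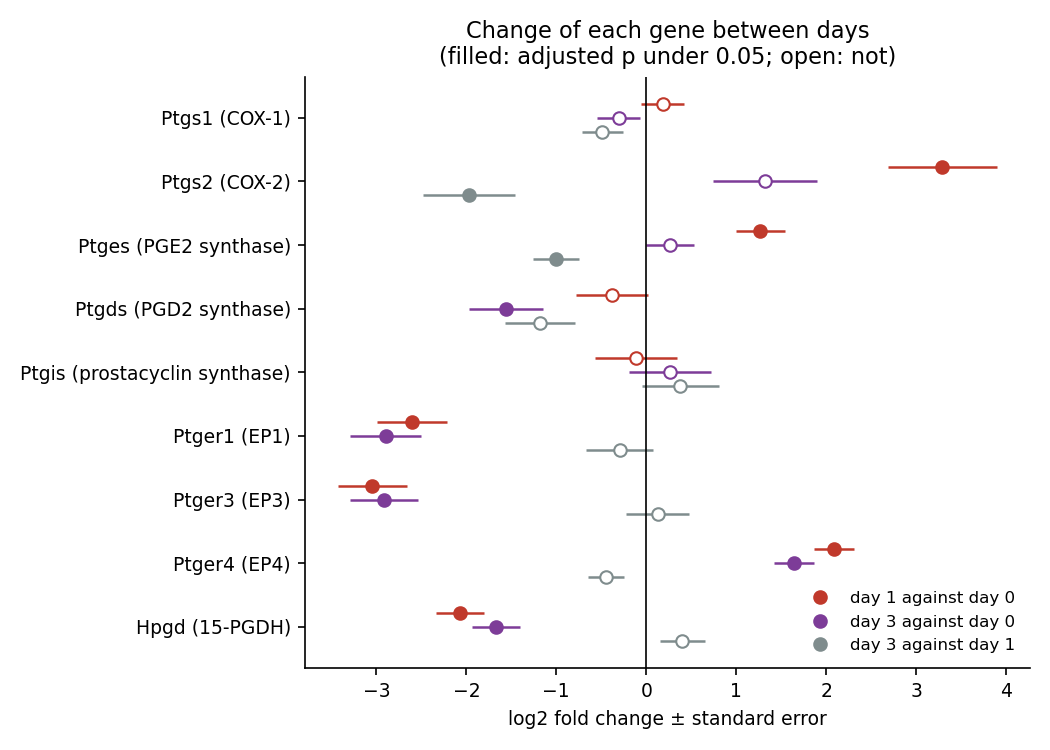
Log2 fold changes with standard errors of the 9 genes for day 1 against day 0, day 3 against day 0 and day 3 against day 1, filled where the adjusted p was under 0.05. Ptger4, Ptger3, Ptger1 and Hpgd keep their direction from day 1 to day 3, and Ptgs2 and Ptges have open symbols at day 3 against day 0.

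Within the formats, the same 6 genes were called at day 1 in the 1-digit libraries (background 58.5%) and in the 3-digit libraries (41.6%) relative to day 0. At day 3 the 1-digit libraries gave 7 calls (background 53.7%), adding Ptgs2 and Ptgis, the latter higher by 0.93 ± 0.36 (adjusted p = 0.0439), to the 5 of all libraries. The 3-digit libraries gave those 5 (32.4%). Some of these within-format calls rest on single libraries or on the processing. Ptgds in the 3-digit libraries of day 3 was not called with total counts in place of TMM (adjusted p = 0.0513), nor Ptgis in the 1-digit libraries of day 3 with no filter on low counts (adjusted p = 0.0720). Ptges in the 3-digit libraries of day 1 was not called without day 1 replicate 2 (adjusted p = 0.143), nor was Ptgds in the 3-digit libraries of day 3 without day 0 replicate 1, 2 or 3 or day 3 replicate 1 or 3 (adjusted p from 0.0642 to 0.108). In the 1-digit libraries of day 3 the Ptgs2 call was lost without day 0 replicate 2 or 3 or day 3 replicate 4 or 5 (adjusted p from 0.0549 to 0.110), and the Ptgis call without any of 8 libraries (day 0 replicates 1, 2 and 3, day 1 replicates 1 and 4 and day 3 replicates 3, 4 and 5, adjusted p from 0.0519 to 0.263). The call of Ptgis for the difference between the format contrasts was lost without day 1 replicate 1 (adjusted p = 0.0517). By format itself, Ptgis and Ptger3 were the only genes of the group called at either day, and Ptgis the only one whose format contrast differed between the days, where 17.6% of all genes did. For Ptger1 at day 3 the 3-digit libraries exceeded the others by 1.19 ± 0.44 without overlap, which was not called (adjusted p = 0.0746) but was called by DESeq2 (adjusted p = 0.0415) and without day 3 replicate 1 (adjusted p = 0.0340).

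Other genes of the pathway were taken from a list of 22 symbols, of which 21 were in the tables (Prxl2b is listed under its older symbol Fam213b) and 17 were tested. Akr1b3, Ptgdr and Ptgdr2 had no read in any library, and Ptger2, the gene of the fourth prostaglandin E2 receptor EP2, had 46 reads in all 14 libraries together. At day 1, 5 of the 17 were higher and 3 lower, with a median log2 fold change of -0.02, where 42.1% of all genes were called. At day 3, 7 were higher and 2 lower, with a median of 0.11, where 33.3% of all genes were called. Without day 1 replicate 5 the day 1 count was 5 in place of 8, and in the 1-digit libraries alone the day 3 count was 15 in place of 9. With 1 term for each day and format, the 1-digit libraries of day 3 gave 7 higher and 8 lower, with a median of -0.30 (background 53.7%). Hpgds, the prostaglandin D synthase of blood-derived cells, was higher at both days, by 1.69 ± 0.56 (adjusted p = 0.0260) and 2.46 ± 0.57 (adjusted p = 0.00539), and in each format at each day. Fitted alone with day 0, the 1-digit libraries of day 3 gave 3.305 ± 0.467 and the 3-digit libraries 1.421 ± 0.440. By format Hpgds was called lower in the 3-digit libraries at day 3. The day 1 call was lost without day 0 replicate 1 or 3 or day 1 replicate 5 (adjusted p from 0.0623 to 0.0682). It went from 0.316 to 1.88 CPM at day 0 to 2.72 to 6.35 CPM at day 1 and 3.07 to 13.4 CPM at day 3, while Ptgds fell by day 3.

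Slco2a1, which carries prostaglandins into cells, was at 21.0 to 35.7 CPM at day 0, 39.3 to 102 CPM at day 1 and 51.2 to 100 CPM at day 3. Its log2 fold change was 1.34 ± 0.32 at day 1 (adjusted p = 0.00478) and 1.46 ± 0.32 at day 3 (adjusted p = 0.00402). The formats gave 0.79 and 1.90 at day 1 and 1.91 and 1.05 at day 3, 1-digit first, all called, and the format contrasts of the 2 days differed by -1.96 ± 0.27 (adjusted p = 0.000823). Ptgir, the prostacyclin receptor gene, was higher by 1.25 ± 0.41 and 1.45 ± 0.41 (adjusted p = 0.0241 and 0.0155) at 2.03 CPM or less. The day 1 call was lost with the 1-digit libraries fitted alone (adjusted p = 0.0657) and without day 0 replicate 1, 2 or 4 (adjusted p from 0.0549 to 0.0702), and the day 3 call without day 0 replicate 1 (adjusted p = 0.0519). Cbr1, a carbonyl reductase that can turn prostaglandin E2 into F2α, was higher at day 3 only, by 1.60 ± 0.54 (adjusted p = 0.0341), with 54.9 to 367 CPM, and the call was lost with number format as a term (1.38, adjusted p = 0.0544) and without any of 6 libraries (day 0 replicates 1, 2 and 3 and day 3 replicates 1, 3 and 4, adjusted p from 0.0547 to 0.0998). Among the phospholipases Pla2g12a was higher at both days, though not called in the 3-digit libraries of day 3 (adjusted p = 0.226), and Pla2g6 was lower at both, though not called in the 3-digit libraries of day 1 (adjusted p = 0.128), and Pla2g4a, the cytosolic enzyme that frees arachidonic acid, was called at neither. Ptges3, a further E synthase, was higher at day 1 and not called at day 3 over all libraries. In the 1-digit libraries Ptges3 was higher at day 1 (0.75 ± 0.12, adjusted p = 0.000146) and lower at day 3 (-0.53 ± 0.14, adjusted p = 0.00568), in the 3-digit libraries it was called at neither day, and its format contrasts of the 2 days differed by 0.80 ± 0.20 (adjusted p = 0.0160). Tbxa2r, the thromboxane receptor gene, and Ptgr2, a reductase of prostaglandin breakdown, were lower at day 1, with -1.29 ± 0.46 (adjusted p = 0.0371) and -1.22 ± 0.36 (adjusted p = 0.0138). For Tbxa2r the formats gave -2.41 ± 0.36 and -0.46 ± 0.36, 1-digit first, and the call was lost with total counts, with a replicate block, with the 2 days fitted alone (adjusted p from 0.0518 to 0.0639) and without day 0 replicate 2 or 3 or day 1 replicate 3, 4 or 5 (adjusted p from 0.0575 to 0.0943). At day 3 Abcc4, an exporter of prostaglandins, and Ptgr1 were higher and Fam213b was lower, with Ptgr1 not called in the 3-digit libraries (adjusted p = 0.0957).

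**Figure D5:**
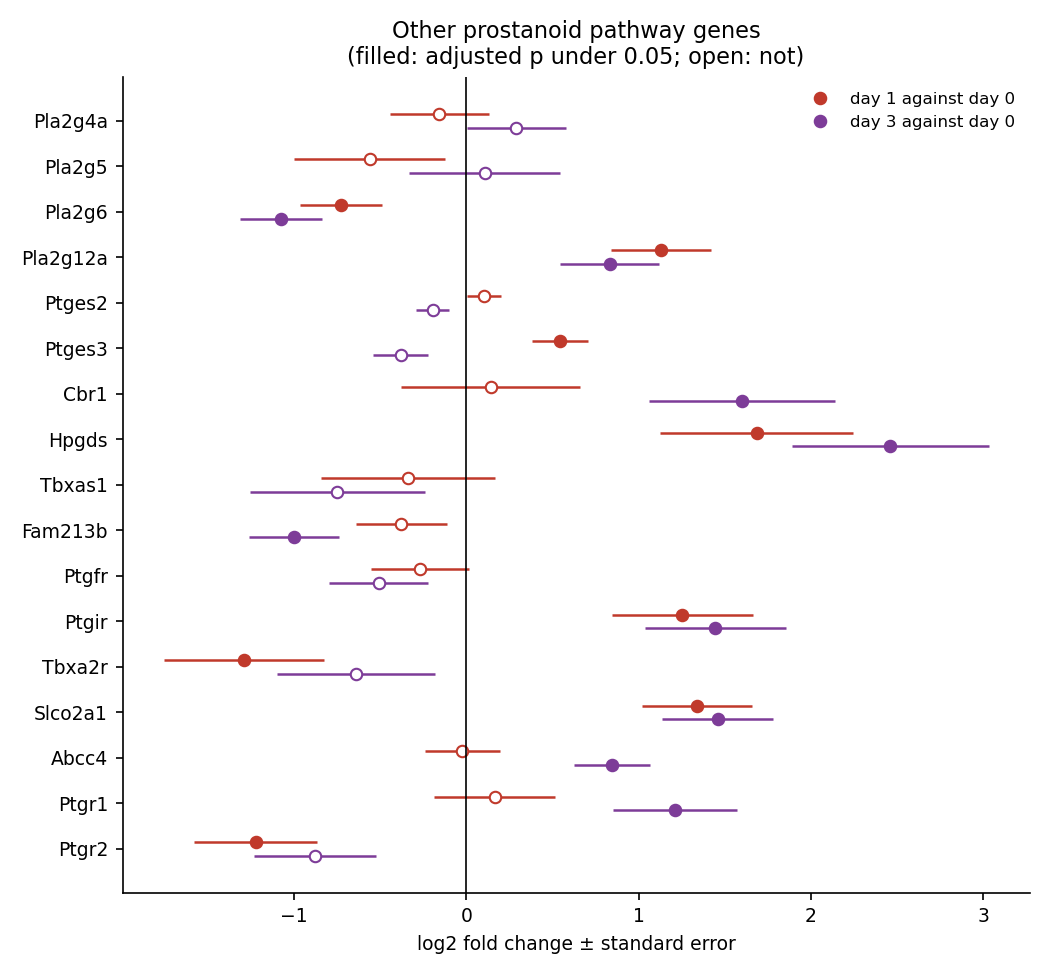
Log2 fold changes with standard errors of the 17 tested genes of the prostanoid pathway outside the group, for day 1 and day 3 against day 0, filled where the adjusted p was under 0.05. Hpgds, Slco2a1, Ptgir and Pla2g12a are filled above 0 at both days and Pla2g6 below 0 at both.

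The leukotriene branch, which uses the same arachidonic acid, had 7 tested genes. At day 1 Alox5ap, the helper protein of 5-lipoxygenase, was the only one called, higher by 1.93 ± 0.40 (adjusted p = 0.00191). At day 3 Alox5, Alox5ap, Ltc4s and Ltb4r1 were higher, led by Alox5, the 5-lipoxygenase gene, at 3.07 ± 0.69 (adjusted p = 0.00443) and Alox5ap at 2.82 ± 0.41 (adjusted p = 0.000265). Alox5 rested on few reads, 0.121 to 0.882 CPM at day 0 and 0.676 to 5.21 CPM at day 3. No gene of this branch was lower at either day. The 1 call of 7 at day 1 and the 4 of 7 at day 3 stand against 42.1% and 33.3% of all genes.

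Genes whose levels followed those of the group most closely were ranked by Pearson's r of log2 CPM over the 14 libraries, which share their days, so that r is a description. For Ptgs2 they were Parvb (r = 0.97), Sema3f (0.93) and Nol12 (0.93), and r stayed at 0.92, 0.79 and 0.74 after removing the mean of each day. For Ptges they were Snora41 (0.94), Ppp1r13l (0.93) and the immediate early gene Fos (0.93), with 0.87, 0.76 and 0.83 within days. Snora41 rested on few reads, with means of 0.272, 0.701 and 0.263 CPM at days 0, 1 and 3. For Ptger3 they were Tmem72, Syn2 and Ppic (0.98, 0.98 and 0.97, and 0.86 to 0.87 within days). For Hpgd they were Fam107a, Ggnbp2os and Htr4 (0.95, 0.94 and 0.94), with 0.56, 0.81 and 0.59 within days. By ranks (Spearman's rho) these 3 were at 0.78, 0.92 and 0.68. Htr4 rested on very few reads, with means of 0.932 CPM at day 0, 0.0289 CPM at day 1 and 0.0629 CPM at day 3.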

How the data were processed

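Per the labels, TRIzol was used for RNA and an Illumina TruSeq kit for the libraries. The submitters' processing notes name Trimmomatic, STAR and mm10. Their versions, their settings and the gene models counted on are not given in the sources used here. The files deposited by the authors hold STAR's raw read count of each gene, once without strand and once for either strand. The column of the opposite strand was used, which held 98.5% to 98.7% of strand-assigned reads. It held 12485579 to 20476979 reads on genes per library. Reads on no single gene (29.0% to 38.3%) were left out.

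Tests used edgeR 4.0.16 under R 4.3.3 (filterByExpr by day, TMM, glmQLFit and glmQLFTest, 1 term per day over all 14 libraries). A second fit had 1 term for each day and number format. The sources name no test on these read counts, only t tests or ANOVA for differences between groups in general. Standard errors come from the F value. A prior count of 2 entered log2 CPM. The fit was tested on simulated data. The members and gene lists were chosen with earlier results of these data known. All 9 members are given, other pathway genes by counts with values for the 6 that changed most, and 3 similar genes each for Ptgs2, Ptges, Hpgd and Ptger3. Alternatives were the unstranded column, RLE factors, total counts, other filters, DESeq2 1.42.0, the 2 days alone, a replicate block, a format term, either format alone, and leaving out each library. A fit on 1-digit libraries without day 0 replicate 4 was chosen after seeing the data.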

Additional observations from a re-analysis of the deposited data

Results flagged for a closer look

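Among 27 sets of values (9 genes at 3 days), 3 held a library far from the others of its day, where chance gives about 1.35. Ptgds was at 8.885 CPM in day 0 replicate 4 against 18.17 to 19.89 CPM in the other libraries of that day. Ptgds was at 22.67 CPM in day 1 replicate 5 against 9.125 to 11.31 CPM. Ptges was at 46.4 CPM in day 3 replicate 5 against 20.38 to 25.88 CPM, and this library also had the highest neutrophil sum (408 CPM) and the lowest proximal tubule and collecting duct sums (4558 and 272 CPM) of all 14. The part of these in the Ptges value was not tested.

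Ptgis differed between the number formats in opposite directions at day 1 and day 3. The difference between these contrasts was -2.493 on the log2 scale (adjusted p = 0.00911, edgeR's quasi-likelihood test), and at day 3 both 1-digit libraries were above all of the 3-digit libraries, the reverse of day 1. It was -2.164 without day 1 replicate 1 (adjusted p = 0.0517).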

How the results depend on the processing

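The 6 calls at day 1 and those of Ptger4, Ptger3, Ptger1, Hpgd and Ptgds at day 3 relative to day 0 held under every alternative in which the gene was tested and in all 14 fits that left out a library. Fewer than 10 reads in some libraries took Ptgs2 out of the stricter filter. Of the 9 genes, 8 in place of 5 were called at day 3 in the 1-digit libraries without day 0 replicate 4, a fit chosen after seeing the data. From day 1 to day 3, 1 in place of 2 was called with at least 10 counts in every library, in the 3-digit libraries and with the 2 days alone, and 0 to 3 when a library was left out (0 without day 1 replicate 5, 1 without day 3 replicate 1). By number format, 1 in place of 2 was called at day 1 with no filter and with RLE factors, and 0 to 2 at day 1 and 0 to 3 at day 3 when a library was left out. The format contrast differed between days for 2 genes in place of 1 with DESeq2, and for 0 to 2 when a library was left out. Of the other pathway genes 5 in place of 8 were called at day 1 with at least 10 counts in every library, 15 and 14 in place of 9 at day 3 in the 1-digit libraries with and without day 0 replicate 4, and 5 to 8 at day 1 when a library was left out. Of the leukotriene genes, 2 and 3 in place of 1 were called at day 1 with a format term and in the 3-digit libraries, 2 in place of 4 at day 3 with at least 10 counts in every library, and 1 to 2 at day 1 when a library was left out. The causes were not tested, apart from the filter, which tests fewer genes.

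All signs that turned belong to differences that were not called over all libraries. For number format, only called members and Ptger1 at day 3 are listed. Other format contrasts that were not called also turned, such as Ptger1 at day 1, which ranged from -0.358 to 0.9863 over the alternatives. Ptger3 between day 3 and day 1 was -0.09292 with a format term, -0.1088 and -0.09188 in the 1-digit and 3-digit libraries and -0.1074 in 1-digit libraries without day 0 replicate 4. Ptger1 between day 3 and day 1 was 0.3452 and, between formats at day 3, -0.2801 in the unstranded column. Ptgis in the 3-digit libraries was 0.4414 at day 1, -0.4326 at day 3 and -0.874 between them, and Ptgs1 at day 3 was 0.06549 in 1-digit libraries without day 0 replicate 4. With a library left out, Ptger1 and Ptger3 between day 3 and day 1 ranged from -0.6022 to 0.03206 and from -0.07131 to 0.3957, and Ptgis relative to day 0 spanned -0.4566 to 0.08099 (day 1) and -0.08338 to 0.4633 (day 3).

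Same-numbered libraries of different days showed little shared deviation: 4 of 13 pairs had a correlation over 0.1 (range -0.175 to 0.261). Differently numbered pairs were not compared, so this cannot decide whether the numbers pair the libraries. With a replicate block, 6 and 5 members were called at day 1 and day 3 relative to day 0, as without it, and 3 in place of 2 for day 3 relative to day 1, where Ptgds was added (-1.271, adjusted p = 0.0471). Total counts without TMM moved the median of all genes most for number format at day 1, to 0.244 (log2) from 0.031. The lowest counts in any library were 8 reads for Ptgs2, 14 for Ptgis and 16 for Ptger1, and the effect of depth was not tested.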
